A study of Mus musculus with 45 samples.

Results

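The enzymes of fatty acid oxidation and of the tricarboxylic acid (TCA) cycle were followed in inguinal fat of male C57BL/6J mice over 5 ages and 3 diets during lactation. The 46 genes were listed by pathway, and 36 of them had a probe that carries only their symbol. These 36 are among 13840 genes named in the same way on the arrays, and a gene with several probes was represented by the brightest. Of the 36 genes, 20 belong to fatty acid oxidation and 16 to the TCA cycle, the entry of pyruvate and the propionyl-CoA branch. The 10 genes with no such probe were Acadm, Echs1, Etfa, Etfb, Etfdh, Acsl1, Aco1, Idh3b, Suclg2 and Dlat, so that none of the electron transfer flavoprotein genes was followed.

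The under-nourished group, LUN, had 8 pups to a dam whose daily food was held to 50% of what control dams had eaten the day before. The over-nourished group, LON, had 4 pups to a dam fed high fat chow (58 kcal % fat), and the control group had 8 pups to a dam with breeder diet always at hand (22 kcal % fat). After weaning all mice ate the same chow (11 kcal % fat) up to day 56, and then a high fat diet for 8 weeks up to day 112. Each of the 15 groups (LUN, LON and control at days 5, 10, 21, 56 and 112) was 1 RNA pool from 12 mice, measured on 3 Applied Biosystems Mouse Genome Survey arrays. The 3 arrays are technical replicates, and every test below compares RNA pools, with no measure of the variation between mice.

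Long-chain fatty acids are activated to acyl-CoA, carried into mitochondria on carnitine, and shortened in rounds of dehydrogenation, hydration, dehydrogenation and thiolysis that yield acetyl-CoA. The TCA cycle oxidizes acetyl-CoA, which also comes from pyruvate through the pyruvate dehydrogenase complex. Brown and beige adipocytes burn fatty acids by this route to make heat, and white adipocytes mainly store them. Nuclear receptors such as Ppara, with coactivators of the Ppargc1 family, are known to induce many genes of fatty acid oxidation.

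Levels are given as log2 of the signal after quantile normalization of the 45 arrays. Differences are log2 differences between group means, from limma, with their standard error (SE), and a gene was called at a Benjamini-Hochberg adjusted p under 0.05 over all 33012 probes. Levels of different genes come from different probes and are not compared. The 3 arrays of a group differed by a median range of 0.38 for the 36 genes, and by more than 2 in 11 of 540 sets of 3. Arrays correlated with the rest of their group at a mean of 0.806 to 0.963. The value was lowest for control day 112 replicate 2 (0.806), LUN day 5 replicate 3 (0.85) and LON day 21 replicate 3 (0.856), and calls among the 36 genes that were lost without them are given with the value so obtained. The 36 genes gave 63 calls over 18 comparisons, of which 30 held when each array of the comparison was left out in turn, and the others are marked where they are given. Among markers of adipocytes, the mean signals of Fabp4 and Cd36 were at the 99.7 and 99.5 percentile of all probes. Those of Lep, Plin1 and Retn were at 94.9, 91.5 and 75.4. Some markers of other cells were also high, with Hba-a1 (erythroid) at 99.8, Myl1 (muscle) at 99 and Lyz2 (macrophage) at 99. These percentiles therefore do not measure the purity of the tissue. With the spread taken from the 15 pools in place of the arrays, none of the 36 genes was called in any of the 18 comparisons. Of all 33012 probes at most 23 were called higher and at most 4 lower in a comparison, so this is not particular to the 36 genes. That spread was the departure of the pool means from additive effects of diet and age. It counts a diet effect that changes with age as noise, so the lack of calls does not decide on such effects. In bulk tissue fewer cells of a type and less RNA per cell cannot be told apart.

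The promoters of the genes with the largest day 21 rise in control fat are shown to give the sequence beside the expression values. They run from 250 bases before to 50 after the start site in the RefSeq table of GRCm38.p6, 5′ to 3′ on the strand of the gene. No promoter is shown for Cpt1b and Acaa2. Capitals mark AGGTCA, the half-site that nuclear receptors of this class bind. For Acadvl (chr11:70015379-70015678, minus strand) and Ogdh (the first of 6 entries, chr11:6291347-6291646, plus strand) they read as follows.
Acadvl: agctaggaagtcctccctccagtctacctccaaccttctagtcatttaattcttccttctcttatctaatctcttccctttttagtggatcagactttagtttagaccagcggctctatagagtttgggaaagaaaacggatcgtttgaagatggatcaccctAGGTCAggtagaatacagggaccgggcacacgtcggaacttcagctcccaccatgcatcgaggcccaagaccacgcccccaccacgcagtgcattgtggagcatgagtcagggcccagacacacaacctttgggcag
Ogdh: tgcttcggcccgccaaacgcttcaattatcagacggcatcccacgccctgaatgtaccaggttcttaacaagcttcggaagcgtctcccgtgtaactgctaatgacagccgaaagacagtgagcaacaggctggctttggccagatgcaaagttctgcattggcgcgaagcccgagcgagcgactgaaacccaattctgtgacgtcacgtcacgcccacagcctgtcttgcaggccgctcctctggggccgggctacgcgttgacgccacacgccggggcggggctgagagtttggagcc
The Acadvl window held 1 AGGTCA, and this Ogdh window held none, while 1 of the other Ogdh entries held it. Eci1 and Acss1, next in the order of the rise, had no match. Of the 31 genes with a promoter in the table, 7 had AGGTCA on either strand in at least 1 of their 38 promoters, or 8 of the 38 promoters, and 16.26% of the 32851 promoters searched held it. The extended half-site TNAAGGTCA, which contains AGGTCA, was in none of the 38 promoters and in 1.28% of all. A direct repeat of AGGNCA with 1 base between the copies was in none of the 38 and in 0.38% of all. A match is a description of letters and not a binding site. Promoter windows of Hadha (minus strand) and Hadhb (plus strand) lie head to head and share 228 bases at chr5:30155003-30155230, a pair chosen after the values were seen. These genes encode both subunits of the mitochondrial trifunctional protein. The shared stretch is shown on the Hadhb strand.
Hadha and Hadhb: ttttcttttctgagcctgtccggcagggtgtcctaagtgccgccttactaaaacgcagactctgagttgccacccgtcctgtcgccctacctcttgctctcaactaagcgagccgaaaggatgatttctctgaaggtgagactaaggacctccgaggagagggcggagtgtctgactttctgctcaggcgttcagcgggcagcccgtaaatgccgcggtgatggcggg

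**Figure D1:**
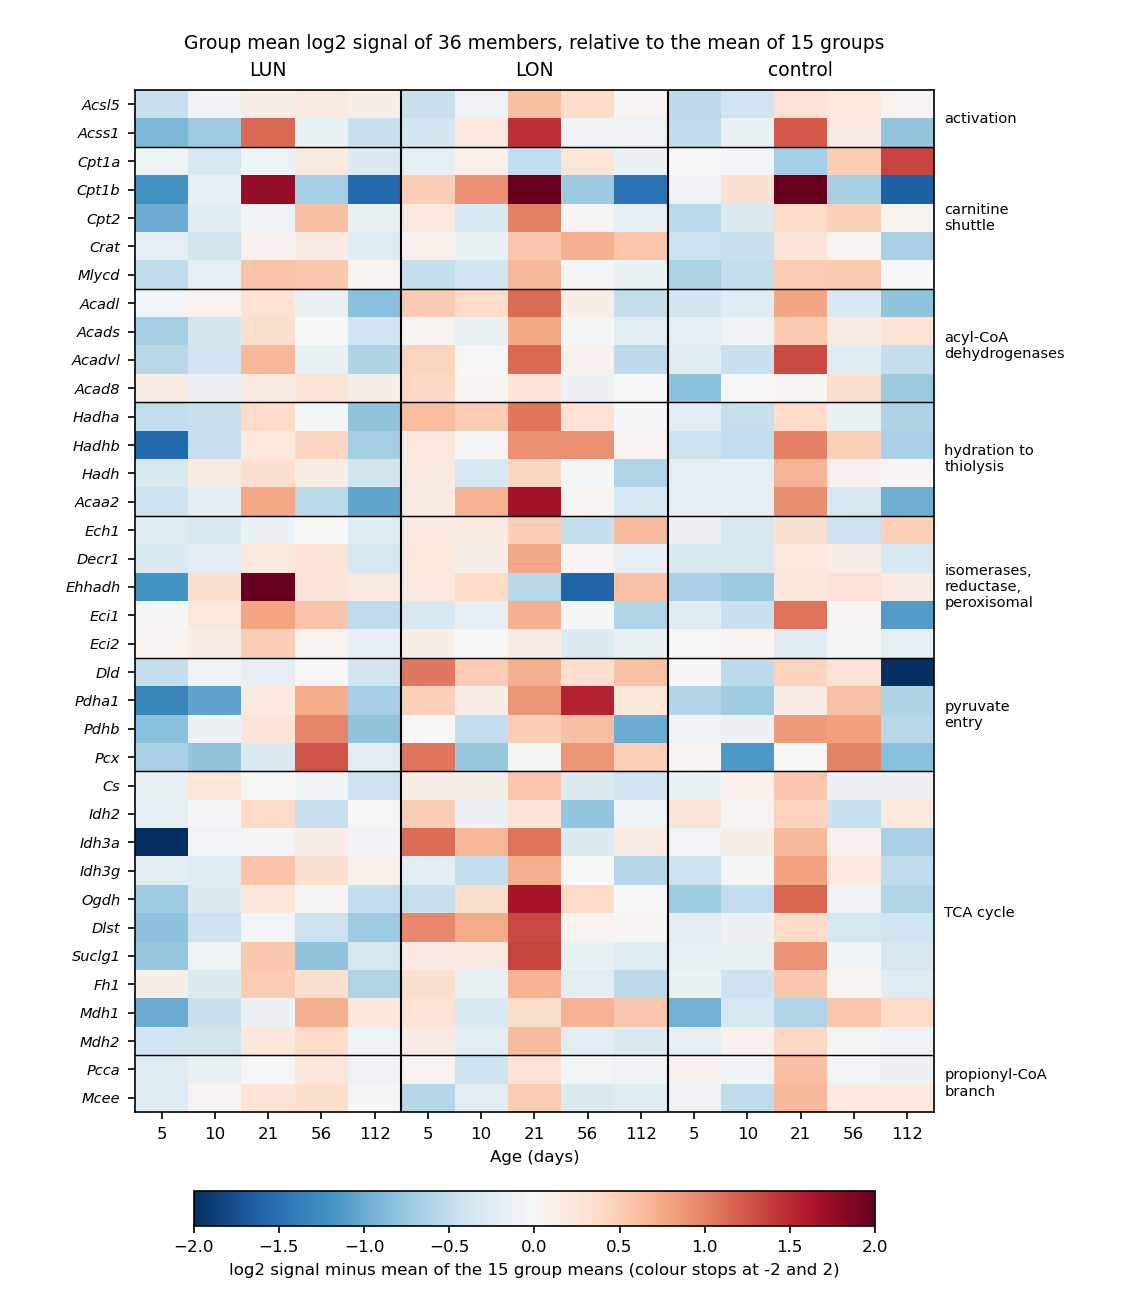
Group mean log2 signal of the 36 genes (rows, by role) at 5 ages in days (columns) in the LUN, LON and control groups, as the difference from the mean of the 15 groups, with colour running between -2 and 2. The day 21 columns hold the highest level of 18 genes in LUN, 23 in LON and 26 in control fat, and all named genes were not counted in this way.

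Day 21, the age of weaning, held the highest group mean of many of these genes. Of the 36, 18 were highest at day 21 in LUN, 23 in LON and 26 in control fat. In LUN fat another 17 were highest at day 56, against 6 in LON and 7 in control fat. The age of the highest mean was not counted for all named genes. For each diet, the level at day 21 was set against the average of the ages around it, days 10 and 56. In LUN fat 5 genes rose (13.9% of the 36) beside 3.19% of all named genes, and none fell beside 2.72%. In LON fat 11 rose (30.6%) beside 0.882%, and none fell beside 0.802%. In control fat 12 rose (33.3%) beside 1.94%, and 1 fell beside 3.32%. Cpt1b, Acss1 and Acaa2 rose in all 3 diets.

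The median difference of the 36 genes was 0.27 in LUN, 0.71 in LON and 0.61 in control fat, and the median of all named genes was -0.01 in LUN, -0.01 in LON and -0.08 in control fat. Scaling each array to its median in place of quantile normalization gave medians of 0.46 in LUN, 0.58 in LON and -0.01 in control fat, with the median of all named genes at 0.03 in LUN, -0.05 in LON and -0.35 in control fat. Relative to all named genes the control median was then 0.34, against 0.69 with quantile normalization. The number of genes called in control fat was 5 with that scaling (3 higher and 2 lower), against 13, and in LON fat 4 against 11. Of all 33012 probes that scaling called 378 higher and 2796 lower in control fat, against 502 and 737. In LON fat it called 60 higher and 119 lower, against 192 and 172. The calls lost with it were those of Acadl, Hadha, Hadhb, Acaa2, Acss1, Eci1, Idh2, Fh1 and Pcca in control fat, of Cpt2, Acads, Mlycd, Dlst, Suclg1, Fh1 and Mdh2 in LON fat, and of Hadha and Idh2 in LUN fat. The study listed 19 of the 46 genes from these arrays, so that their counts are not independent evidence of a rise. Of the 16 that were measured, 3 rose in LUN, 8 in LON and 8 in control fat, and of the 20 others 2 rose in LUN, 3 in LON and 4 in control fat, with Mdh1 lower in control fat.

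Markers of other cells moved at the same ages. Of 7 brown adipocyte markers 2 rose and 1 fell at day 21 in LUN fat, 3 rose in LON fat and 3 rose in control fat, with medians of 0.08 in LUN, 1.37 in LON and 1.19 in control fat. Without LON day 21 replicate 3 and the other arrays of lowest correlation, 5 of the 7 rose in LON fat. Their summed signal, divided by 1000, ran from 1870 to 2090 in LUN, 3390 to 4530 in LON and 3360 to 4120 in control arrays of day 21. At day 10 it ran from 936 to 1320 in LUN, 1290 to 1520 in LON and 761 to 877 in control arrays, and at day 56 from 2000 to 2250 in LUN, 1100 to 1310 in LON and 1850 to 1870 in control arrays. Ucp1, the uncoupling protein of brown fat, differed by -0.14 in LUN, 2.73 in LON and 2.38 in control fat.

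Of 14 skeletal muscle markers, 1 rose and 1 fell in LUN fat, 10 fell in LON fat, and 13 rose in control fat, with medians of -0.11 in LUN, -1.40 in LON and 4.32 in control fat. Their summed signal at day 21, divided by 1000, ran from 1190 to 1540 in LUN, 1500 to 1900 in LON and 4010 to 4840 in control arrays. At day 10 it ran from 1570 to 1860 in LUN, 3590 to 4190 in LON and 415 to 549 in control arrays, and at day 56 from 1660 to 1870 in LUN, 4420 to 5100 in LON and 287 to 415 in control arrays. Muscle itself oxidizes fatty acids and expresses Cpt1b. Cpt1b, Acss1 and Acaa2 rose in LON fat, where 10 of the 14 muscle markers fell, and in control fat, where 13 rose. The part of brown adipocytes and of muscle in the values of the 36 genes was not tested.

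Activation and the carnitine shuttle come first in the pathway. Cpt1b, the muscle and brown fat form of carnitine palmitoyltransferase I, had levels of 12.96, 13 and 12.88 in the LUN arrays of day 21, 13.41, 13.89 and 13.60 in the LON arrays and 13.49, 13.63 and 13.41 in the control arrays. At day 10 its levels were 10.33 to 11.79 in LUN, 11.84 to 12.35 in LON and 11.17 to 11.68 in control arrays, and at day 56 they were 9.72 to 10.93 in LUN, 10.01 to 10.82 in LON and 10.00 to 11.15 in control arrays. Every day 21 array was above all day 10 and day 56 arrays of its diet. Cpt1b rose by 2.17 ± 0.34 (SE), adjusted p = 5.31e-05 in LUN fat, by 2.36 ± 0.34 (SE), adjusted p = 3.37e-05 in LON fat, and by 2.50 ± 0.34 (SE), adjusted p = 7.33e-06 in control fat. This was 4.51-fold in LUN, 5.13-fold in LON and 5.67-fold in control fat. At day 112 its levels were 9.04 to 10.76 in LUN, 9.28 to 10.27 in LON and 9.19 to 9.89 in control arrays, so that the diets overlapped.

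Acss1, which activates acetate in mitochondria, had levels of 13.50, 13.65 and 13.71 in LUN, 13.92, 14.15 and 13.79 in LON and 13.76, 13.54 and 13.85 in control arrays of day 21, and the control arrays overlapped those of both other diets. It rose by 1.54 ± 0.18 in LUN, 1.40 ± 0.18 in LON and 1.20 ± 0.18 in control fat (SE), and all these calls of Cpt1b and Acss1 held with each array left out. With median scaling the rise of Acss1 in control fat was 0.73 with an adjusted p of 0.0537 by limma. The other gene of this step, Acsl5, a long-chain acyl-CoA synthetase, was not called, with differences of 0.06 in LUN, 0.47 in LON and 0.39 in control fat. Cpt2, which releases acyl-CoA inside the mitochondrion, rose in LON fat (1.15 ± 0.19 (SE), adjusted p = 0.000289), and so did Mlycd (0.86 ± 0.16), which breaks down malonyl-CoA, the inhibitor of Cpt1. With median scaling Cpt2 was at 1.03 (adjusted p = 0.182 by limma) and Mlycd at 0.67 (adjusted p = 0.36 by limma) in LON fat, and neither was called. Cpt2 differed by -0.26 in LUN and 0.30 in control fat and was not called there. Cpt1a, the liver form, was at 8.24 to 9.48 in the 9 arrays of day 21 and was not called in any of the 18 comparisons. A control day 112 array (replicate 2) read 14.26 for Cpt1a, against 8.74 and 8.32 in the other arrays of that pool.

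**Figure D2:**
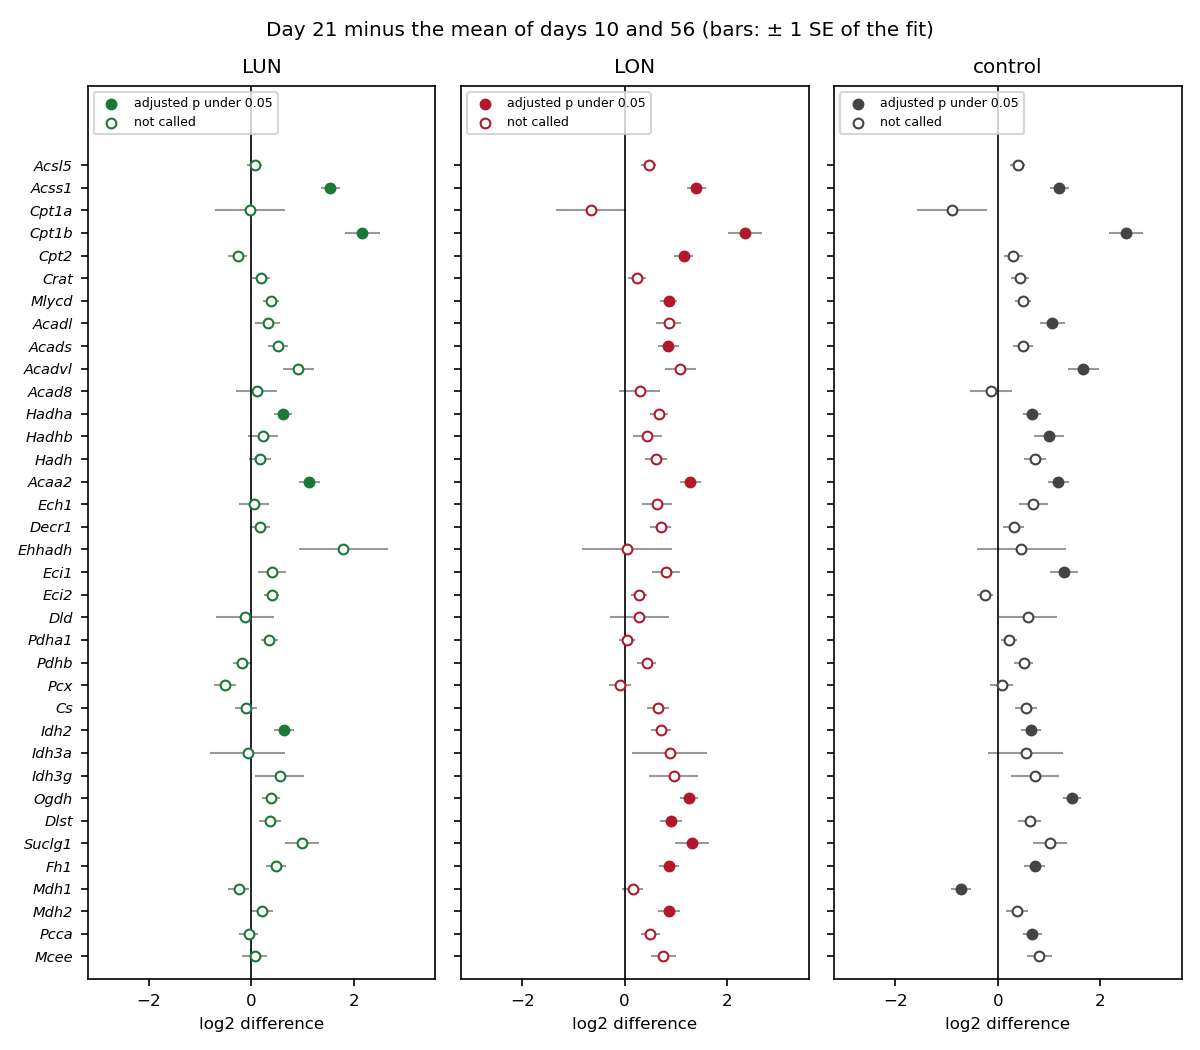
Day 21 level less the average of the day 10 and day 56 levels (log2 signal) for the 36 genes (rows) in LUN, LON and control fat, with bars of 1 SE and filled points at an adjusted p under 0.05. Cpt1b lies farthest to the right in each diet, at 2.17 in LUN, 2.36 in LON and 2.50 in control fat.

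The acyl-CoA dehydrogenases take the first oxidation step. Acadvl, which acts on very long chains, had levels of 19.83, 19.13 and 19.51 in LUN, 19.81, 19.84 and 20.24 in LON and 20.29, 19.74 and 20.42 in control arrays of day 21. It rose in control fat (1.67 ± 0.30 (SE), adjusted p = 0.000682, 3.18-fold), and the differences of 0.92 ± 0.30 in LUN and 1.09 ± 0.30 in LON fat did not pass the threshold. The rise in LUN minus that in control fat was -0.75 ± 0.43 (SE), adjusted p = 0.477, so that a difference between these diets was not shown. Acadl, which acts on long chains, rose in control fat (1.07 ± 0.24, SE), where its adjusted p was 0.0545 without control day 21 replicate 3. Acads, which acts on short chains, rose in LON fat (0.86 ± 0.20), and was 0.69 with an adjusted p of 0.221 by limma without LON day 21 replicate 3. Acad8, which works in valine breakdown, was not called in any of the 3 diets.

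The later steps of the spiral are carried by the trifunctional protein, Hadh and the thiolase Acaa2. Acaa2 had levels of 17.25, 17.42 and 17.31 in LUN, 17.80, 18.38 and 18.52 in LON and 17.61, 17.42 and 17.46 in control arrays of day 21. It rose by 1.13 ± 0.20 in LUN, 1.29 ± 0.20 in LON and 1.18 ± 0.20 in control fat (SE), and with median scaling the control value was 0.54 with an adjusted p of 0.206 by limma. Hadha, the alpha subunit of the trifunctional protein, had 14.55, 14.04 and 14.12 in LUN, 14.76, 14.98 and 15.02 in LON and 14.11, 14.47 and 14.11 in control arrays of day 21, and the LON arrays were above all others. Hadha rose in LUN (0.61 ± 0.18) and control fat (0.66 ± 0.18), calls that were lost without any 1 of 6 of 9 LUN arrays and 3 of 9 control arrays. Hadhb, the beta subunit, had 17.64, 18.62 and 18.29 in LUN, 18.72, 18.94 and 19.00 in LON and 18.94, 18.99 and 18.98 in control arrays, and rose in control fat (1.00 ± 0.29). The Hadhb call was lost without any 1 of 7 of 9 control arrays, and 2 probes of Hadhb were on the array, of which the brighter is given. Hadh was not called in any of the 3 diets, with differences of 0.17 in LUN, 0.61 in LON and 0.73 in control fat.

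Isomerases and a reductase handle the double bonds of unsaturated fatty acids. Eci1, a mitochondrial enoyl-CoA isomerase, had levels of 17.86, 18.21 and 18.25 in LUN, 17.91, 17.92 and 18.23 in LON and 18.65, 18.42 and 18.13 in control arrays of day 21, and rose in control fat (1.29 ± 0.27 (SE), adjusted p = 0.00395), where median scaling gave 0.66 and no call. Ech1, Decr1 and Eci2 were not called at day 21 in any diet by this comparison. Ehhadh, the bifunctional enzyme of peroxisomes, had 16.08, 15.29 and 16.08 in LUN, 15.12, 15.15 and 9.25 in LON and 14.24, 13.59 and 14.04 in control arrays of day 21. LON day 21 replicate 3 stood 5.91 below the highest array of its pool, and with such arrays in 3 groups the SE of the Ehhadh rise was 0.88 and no comparison called it.

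Within the TCA cycle, Ogdh had the lowest adjusted p of the rise in LON and control fat. It encodes the first subunit of the 2-oxoglutarate dehydrogenase complex. Its levels were 16.82, 17.08 and 16.78 in LUN, 18.12, 18.33 and 18.41 in LON and 17.997, 17.54 and 17.90 in control arrays of day 21. All LUN arrays were below all control arrays. Ogdh rose by 1.26 ± 0.18 (SE), adjusted p = 3.32e-05 in LON fat and by 1.45 ± 0.18 (SE), adjusted p = 1.59e-06 in control fat, and by 0.38 ± 0.18 (SE), adjusted p = 0.303 in LUN fat, which did not pass the threshold. The rise in LUN minus that in control fat was -1.07 ± 0.25 (SE), adjusted p = 0.018. With median scaling this difference was -0.26 with an adjusted p of 0.772 by limma, and its adjusted p was between 0.0577 and 0.0639 without control day 21 replicate 1, LUN day 21 replicate 1 or LUN day 21 replicate 3. Of the 14 muscle markers, 13 had a lower rise in LUN than in control fat, with a median of -4.54.

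Dlst, the second subunit of that complex, rose in LON fat (0.91 ± 0.22, not called without any 1 of 4 of 9 arrays), and Suclg1, the alpha subunit of succinyl-CoA ligase, rose there as well (1.32 ± 0.33). Suclg1 had 15.49, 15.43 and 15.02 in LUN, 16.26, 16.10 and 15.99 in LON and 15.75, 15.39 and 15.88 in control arrays of day 21, and its differences of 0.99 ± 0.33 in LUN and 1.02 ± 0.33 in control fat had adjusted p of 0.0893 and 0.0829 by limma. Fh1, which hydrates fumarate, rose in LON (0.87 ± 0.20) and control fat (0.72 ± 0.20), and Mdh2, the mitochondrial malate dehydrogenase, in LON fat (0.86 ± 0.22). Without LON day 21 replicate 3, Dlst, Suclg1, Fh1 and Mdh2 had differences of 0.75, 1.39, 0.73 and 0.83 in LON fat and were not called, and the calls of Suclg1, Fh1 and Mdh2 were lost without any 1 of 7 of 9, 2 of 9 and 7 of 9 LON arrays. That of Fh1 in control fat was lost without any 1 of 6 of 9 arrays. Idh2, a mitochondrial isocitrate dehydrogenase that yields NADPH, rose in LUN (0.64 ± 0.19) and control fat (0.65 ± 0.19), and each call was lost without any 1 of 8 of 9 arrays. Mdh1, the cytosolic malate dehydrogenase, fell in control fat (-0.72 ± 0.20 (SE), adjusted p = 0.035), a call lost without any 1 of 7 of 9 arrays. Cs, Idh3a and Idh3g were not called.

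The propionyl-CoA branch passes odd-chain products to succinyl-CoA. Pcca, the alpha subunit of propionyl-CoA carboxylase, had 17.33, 17.41 and 17.38 in LUN, 17.48, 17.60 and 17.92 in LON and 18.17, 17.94 and 17.87 in control arrays of day 21, and rose in control fat (0.67 ± 0.18), a call lost without any 1 of 5 of 9 arrays. Mcee, the epimerase of this branch, differed by 0.07 ± 0.24 in LUN, 0.76 ± 0.24 in LON and 0.81 ± 0.24 in control fat and was not called. None of the 4 genes of pyruvate entry was called at day 21 in any diet, and their medians were -0.15 in LUN, 0.17 in LON and 0.36 in control fat.

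The rise itself was compared between diets. Of the 36 genes, none had a higher rise in LUN than in control fat, beside 1.7% of all named genes, and 1, Ogdh, had a lower one, beside 0.882%. None had a higher rise in LON than in control fat, beside 0.181%, and none a lower one, beside 0.426%. At an unadjusted p under 0.05 in limma, 1 gene had a higher and 8 a lower rise in LUN fat, and 3 had a higher and none a lower rise in LON fat. Of all 33012 probes, 4361 for LUN and 2304 for LON had such a p in either direction. The median difference of the rise of the 36 genes was -0.26 for LUN and 0.07 for LON minus control. With median scaling it was 0.46 for LUN beside 0.39 for all named genes, and 0.48 for LON beside 0.34 for all named genes. Both comparisons use the same control arrays.

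**Figure D3:**
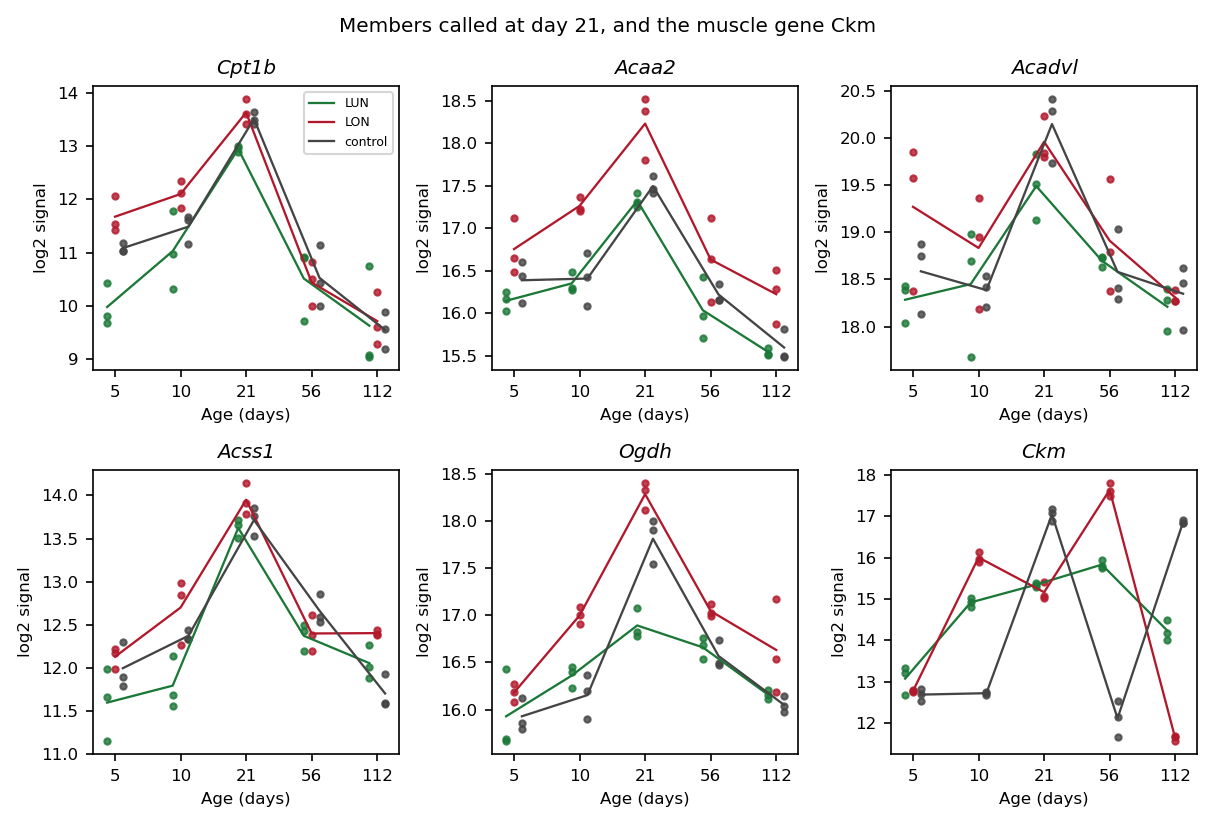
Log2 signal per array (points) and group mean (lines) by age in days in LUN, LON and control fat, for Cpt1b, Acaa2, Acadvl, Acss1 and Ogdh and for the muscle gene Ckm. Cpt1b is highest at day 21 in all diets, and Ckm is high at day 21 in control arrays and at day 56 in LON arrays.

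The regulators were read beside the enzymes. Ppara, the nuclear receptor that induces fatty acid oxidation genes, had levels of 14.40, 14.72 and 14.55 in LUN, 15.51, 15.48 and 15.93 in LON and 15.71, 15.65 and 15.61 in control arrays of day 21. All LUN arrays were below all others. Ppara rose in LON (1.86 ± 0.22) and control fat (2.17 ± 0.22), and its rise was lower in LUN than in control fat (-1.44 ± 0.31 (SE), adjusted p = 0.00825), though with median scaling that value was -0.77 with an adjusted p of 0.204 by limma. Ppargc1b, a coactivator, rose in all 3 diets, by 0.65 in LUN, 0.76 in LON and 1.17 in control fat, and Ppargc1a, its relative, rose in LUN fat (1.74 ± 0.34). Nrf1, a regulator of mitochondrial genes, was also called in LUN fat (1.78 ± 0.53). With median scaling neither Nrf1 in LUN fat nor Ppargc1b in any diet was called, and Ppargc1b in LON fat was 0.53 and not called without LON day 21 replicate 3. The calls of Ppargc1b in LUN and LON fat and of Nrf1 in LUN fat were each lost without several single arrays. Without LUN day 21 replicate 2 Ppargc1b was 0.56 in LUN fat, with an adjusted p of 0.224 by limma. Nrf1 was 1.41 in LUN fat without LUN day 56 replicate 1, with an adjusted p of 0.14 by limma. Of the 8 regulators measured, 3 rose in LUN, 2 in LON and 2 in control fat, and none fell.

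Other genes of the same pathways were counted from lists. Of 22 further genes of fatty acid oxidation, 7 rose at day 21 in LUN fat, 3 in LON fat, and 3 rose and 1 fell in control fat. Slc25a20, the carnitine carrier of the inner membrane, rose in all 3 diets (0.93 in LUN, 1.62 in LON and 1.17 in control fat, with the LUN and control calls lost with median scaling), and so did Slc27a2, an acyl-CoA synthetase (4.16 in LUN, 2.55 in LON and 2.98 in control fat). Of 23 further genes of the TCA cycle, pyruvate and the chain, 5 rose and 1 fell in LUN, 4 rose in LON, and 5 rose and 2 fell in control fat. Pdk4, a kinase that inactivates pyruvate dehydrogenase, rose by 1.84 in LUN, 1.47 in LON and 1.93 in control fat, and Sucla2, the beta subunit of succinyl-CoA ligase, by 0.99 in LUN, 0.96 in LON and 1.13 in control fat. With median scaling Sucla2 was not called in LON (0.87) and control fat (0.52).

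LUN fat was then compared with control fat at each age. At day 5, none of the 36 genes was higher beside 0.686% of all named genes, and 1 was lower beside 1.11%. This was Pdha1, a subunit of pyruvate dehydrogenase, with 13.60, 13.32 and 12.78 in LUN and 13.91, 14.14 and 13.87 in control arrays (-0.74 ± 0.18 (SE), adjusted p = 0.0315). Without LUN day 5 replicate 3 the difference was -0.51 and was not called, and the call was lost without any 1 of 5 of 6 arrays and with median scaling (-0.37). At day 10, none was higher beside 0.665%, and none lower beside 1.25%, while before adjustment limma put 1 gene higher and 1 lower with p under 0.05. Of all 33012 probes, 3476 had such a p at day 10 in either direction.

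At day 21, 1 gene was higher in LUN fat (2.78% of the 36) beside 2.14% of all named genes, and 1 was lower beside 1.63%. Eci2, an enoyl-CoA isomerase of peroxisomes and mitochondria, had 15.15, 15.56 and 15.11 in LUN and 14.88, 14.19 and 14.51 in control arrays, without overlap (0.75 ± 0.18 (SE), adjusted p = 0.0113). Its adjusted p was 0.109 if LUN day 21 replicate 2 was left out, and 0.115 if control day 21 replicate 2 was. Ogdh, whose day 21 levels are given above, was lower in LUN fat (-0.92 ± 0.21 (SE), adjusted p = 0.0076, 1.89-fold), and this call held with each array left out in turn, while median scaling gave -0.52 and no call. The median of the 36 differences was -0.26, with 8 of 36 above 0, and it was 0.17 with median scaling, under which the median of all named genes was 0.13. Muscle markers were lower in LUN fat, 11 of 14 called with a median of -1.76, and of the 7 brown adipocyte markers Ucp1 was lower (-2.26), and whether they bear on these values was not tested.

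Among the 22 further genes of fatty acid oxidation, 4 were higher in LUN than in control fat at day 21 and none was lower. Hacl1, an enzyme of alpha-oxidation in peroxisomes, differed by 2.60 ± 0.36 (SE), Slc27a1, a fatty acid transport protein, by 1.77 ± 0.19, and Hsd17b4, the multifunctional enzyme of peroxisomal oxidation, by 1.36 ± 0.26. Ppara was lower (-1.10 ± 0.25 (SE), adjusted p = 0.00958), and was at -0.81 and not called with median scaling. At day 56, none of the 36 genes was higher beside 0.238% of all named genes, and none was lower beside 0.0578%, also at an unadjusted p under 0.05 in limma. Of all 33012 probes, 2621 had such a p in either direction. At day 112, after the high fat diet, none of the 36 was higher beside 0.224%, and none lower beside 0.513%. Before adjustment limma put 2 of the 36 higher and 3 lower with p under 0.05, and 4738 of all 33012 probes had such a p in either direction.

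**Figure D4:**
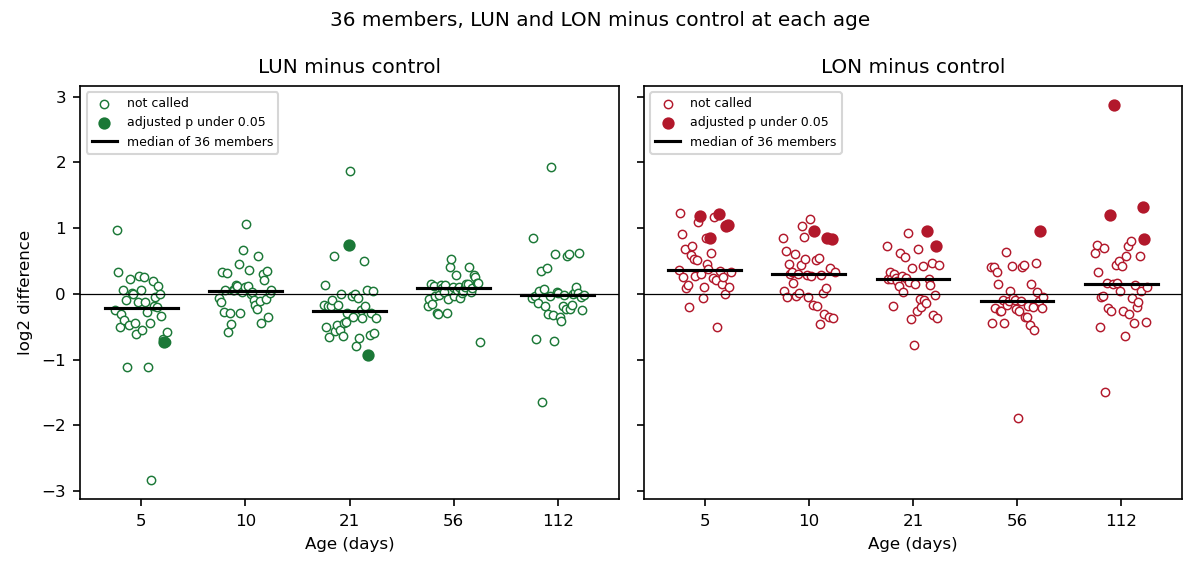
Difference in log2 signal of each of the 36 genes between LUN and control fat (left) and LON and control fat (right) at 5 ages in days, with filled points at an adjusted p under 0.05 and lines at the median. The LON medians are 0.37, 0.30 and 0.23 at days 5, 10 and 21, and the highest filled point is Dld at day 112.

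Against control fat, every call among the 36 genes in LON fat was of a higher level. In the deposited normalized values the LON arrays share a median of 9.815, while the other arrays lie between 9.779 and 9.784, so that the handling of the LON arrays and the diet cannot be told apart. At day 5, 5 genes were higher (13.9% of the 36) beside 1.65% of all named genes, and none was lower beside 0.766%. At day 10, 3 were higher (8.33%) beside 0.889%, and none was lower beside 0.101%. At day 21, 2 were higher (5.56%) beside 1.37%, and none lower beside 0.65%. At day 56, 1 was higher (2.78%) beside 0.867%, and none lower beside 1.16%. At day 112, 4 were higher (11.1%) beside 2.14%, and none lower beside 1.13%.

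Markers of other cells differed between LON and control fat as well. Of 6 epithelial markers, 3 were higher in LON fat at day 5 with a median of 2.62, and 2 at day 10 with a median of 1.55. Among them Krt14, a keratin of basal epithelium, differed by 3.08 ± 0.54 at day 5 and 3.63 ± 0.54 at day 10 (SE). The summed signal of the 6, divided by 1000, ran from 83 to 96 in LON and 7 to 11 in control arrays of day 5, and from 44 to 49 in LON and 5 to 9 in control arrays of day 10, without overlap. At days 21 and 56, 2 were higher at each age, and none was called at day 112. The calls of Krt14 at day 21 (2.15) and of Epcam at day 56 (2.04) were lost without several single arrays. Without control day 21 replicate 3 Krt14 was 1.61, and without control day 56 replicate 3 Epcam was 1.62. Of the 7 brown adipocyte markers 1 was higher at each of days 5, 10 and 21, and 1 was lower at each of days 56 and 112. At days 5 (2.37) and 21 (2.54) this was Elovl3. Its day 5 call was lost without any single array, with an adjusted p of 0.0624 to 0.106 by limma. Its day 21 call was lost without several single arrays, with an adjusted p of 0.105 by limma without control day 21 replicate 2. The part of these cells in the LON values was not tested.

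Pdha1 was the gene called at every age. At day 5 it had 14.86, 15.06 and 15.15 in LON and 13.91, 14.14 and 13.87 in control arrays, at day 10 14.67, 14.48 and 14.91 in LON and 13.91, 13.86 and 13.76 in control arrays, and at day 21 15.29, 15.26 and 15.74 in LON and 14.69, 14.86 and 14.57 in control arrays. At day 56 it had 15.82, 16.23 and 16.21 in LON and 15.02, 15.31 and 15.07 in control arrays, and at day 112 14.71, 14.82 and 14.82 in LON and 14.003, 14.02 and 13.81 in control arrays. The lowest LON array was above the highest control array at each age. The differences were 1.05 ± 0.18, 0.84 ± 0.18, 0.72 ± 0.18, 0.95 ± 0.18 and 0.84 ± 0.18 at days 5, 10, 21, 56 and 112 (SE). The calls at days 5 and 56 held with each array left out, and those at days 10, 21 and 112 were lost without any 1 of 4 of 6, 5 of 6 and 1 of 6 arrays. At day 21 the difference was 0.57 with an adjusted p of 0.229 by limma without LON day 21 replicate 3. With median scaling Pdha1 was not called at days 10, 21 and 56, with differences of 0.50, 0.82 and 0.68. The muscle markers changed side over these ages, with median differences of 3.54 and 5.04 (days 10 and 56) and of -1.60 and -4.25 (days 21 and 112). The part of muscle in the Pdha1 differences was not tested.

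Mdh1, which moves reducing equivalents across the inner membrane as part of the malate-aspartate shuttle, had 13.35, 13.46 and 13.47 in LON and 12.06, 12.06 and 12.49 in control arrays of day 5 (1.22 ± 0.23 (SE), adjusted p = 0.00181, 2.33-fold). At day 21 it had 13.65, 13.35 and 13.50 in LON and 12.42, 12.76 and 12.44 in control arrays (0.96 ± 0.23 (SE), adjusted p = 0.0251). The groups did not overlap at either age, and the day 21 call was lost without any 1 of 4 of 6 arrays and with median scaling (1.17, adjusted p = 0.0705 by limma). Without LON day 21 replicate 3 the day 21 difference was 0.96 with an adjusted p of 0.0772 by limma, and was not called. Dlst had 15.02, 15.43 and 14.70 in LON and 13.99, 13.95 and 13.66 in control arrays of day 5 (1.18 ± 0.26, SE), and Pcx, the pyruvate carboxylase that refills the cycle with oxaloacetate, 18.59, 18.34 and 18.41 in LON and 17.38, 17.29 and 17.56 in control arrays (1.04 ± 0.25). These calls were lost without LON day 5 replicate 2 for Dlst and without any 1 of 5 of 6 for Pcx.

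Hadha was higher in LON fat at day 5 (0.84 ± 0.20) and at day 10, where it had 14.12, 14.46 and 14.50 in LON and 13.49, 13.39 and 13.32 in control arrays (0.96 ± 0.20 (SE), adjusted p = 0.00842), calls lost without any 1 of 4 of 6 arrays at day 5 and 3 of 6 at day 10. Hadhb, whose promoter window overlaps that of Hadha, had 17.99, 17.77 and 18.24 in LON and 17.76, 17.27 and 17.42 in control arrays of day 10. It differed by 0.62 ± 0.33 at day 5 and 0.51 ± 0.33 at day 10 and was not called. Whether the pair differs in response was not tested. Ogdh had 17.09, 17.00 and 16.91 in LON and 16.19, 16.37 and 15.89 in control arrays of day 10 (0.85 ± 0.21), a call that was lost without any 1 of 5 of 6 arrays. With median scaling the day 10 differences were 0.66 for Hadha and 0.42 for Ogdh, and neither was called.

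At day 112 Crat, the carnitine acetyltransferase that exports acetyl groups, had 18.41, 18.43 and 18.42 in LON and 17.53, 17.00 and 17.13 in control arrays (1.20 ± 0.20 (SE), adjusted p = 0.000439). Pcx had 17.43, 18.28 and 17.84 in LON and 17.22, 15.67 and 16.72 in control arrays (1.31 ± 0.25 (SE), adjusted p = 0.00295), and the difference was 0.88 without control day 112 replicate 2 and the other arrays of lowest correlation. Dld, the subunit that the pyruvate and 2-oxoglutarate dehydrogenase complexes share, had 19.06, 19.40 and 17.55 in LON and 17.36, 12.46 and 17.55 in control arrays (2.88 ± 0.66). The Dld value rested on control day 112 replicate 2, without which the difference was 1.21 with an adjusted p of 0.0929 by limma, and the call was lost without any 1 of 3 of 6 arrays. Of the 14 muscle markers, 12 were lower in LON fat at this age.

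**Figure D5:**
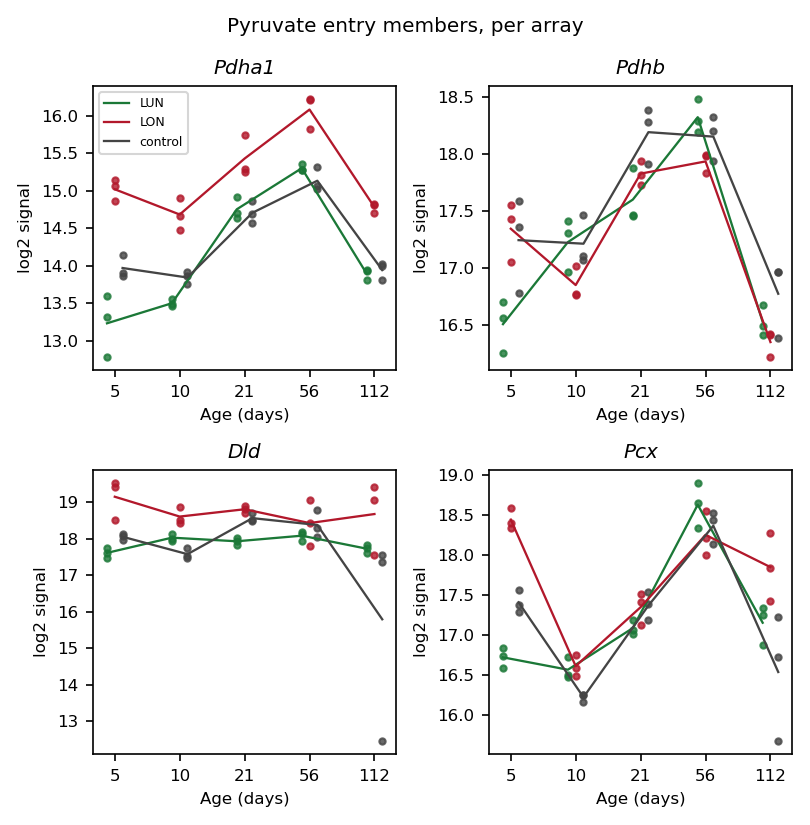
Log2 signal per array (points) and group mean (lines) of Pdha1, Pdhb, Dld and Pcx by age in days in LUN, LON and control fat. Pdha1 and Pdhb are lower at day 112 than at day 56 in every diet, and 1 control array of day 112 reads 12.46 for Dld.

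Day 112, after 8 weeks of high fat diet, was compared with day 56, the end of the chow period, so that age and diet cannot be told apart here. In LUN fat none of the 36 genes rose by this test beside 1.81% of all named genes, and 5 fell (13.9%) beside 1.72%. In LON fat none rose beside 2.38%, and 2 fell (5.56%) beside 1.14%. In control fat none rose beside 2.18%, and 8 fell (22.2%) beside 2.46%. At an unadjusted p under 0.05 in limma, none rose in LUN, 3 in LON and 2 in control fat. Of all 33012 probes, 4785 in LUN, 4616 in LON and 5406 in control fat had such a p in either direction. The medians of the 36 genes were -0.48 in LUN, -0.18 in LON and -0.44 in control fat. That of LON was 0.20 with median scaling, under which the median of all named genes was 0.34 and 2 of the 36 rose and 2 fell.

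Pyruvate entry held the genes that fell in every diet. Pdhb, the beta subunit of pyruvate dehydrogenase, had 16.67, 16.50 and 16.42 at day 112 and 18.48, 18.29 and 18.19 at day 56 in LUN fat (-1.79 ± 0.21 (SE), adjusted p = 6.66e-07). It had 16.42, 16.22 and 16.41 at day 112 and 17.98, 17.83 and 17.99 at day 56 in LON fat (-1.58 ± 0.21 (SE), adjusted p = 5.95e-06), and 16.97, 16.39 and 16.97 at day 112 and 17.93, 18.20 and 18.32 at day 56 in control fat (-1.37 ± 0.21 (SE), adjusted p = 6.10e-05). No day 112 array of Pdhb reached a day 56 array of its diet. Pdha1, whose levels at both ages are given above for LON and control fat, had 13.94, 13.81 and 13.93 at day 112 and 15.28, 15.36 and 15.28 at day 56 in LUN fat. Pdha1 fell by 1.41 on the log2 scale in LUN, by 1.30 in LON and by 1.19 in control fat, with SE of 0.18 in each. These 6 calls of Pdha1 and Pdhb held with each array left out in turn.

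Pcx had 17.34, 17.25 and 16.87 at day 112 and 18.91, 18.66 and 18.34 at day 56 in LUN fat (-1.48 ± 0.25 (SE), adjusted p = 0.000339), and 17.22, 15.67 and 16.72 at day 112 and 18.44, 18.52 and 18.14 at day 56 in control fat (-1.83 ± 0.25 (SE), adjusted p = 9.52e-06). In LON fat it had 17.43, 18.28 and 17.84 at day 112 and 18.55, 18.21 and 18 at day 56, which overlapped, and the difference of -0.40 ± 0.25 was not called. Dld was also called in control fat (-2.58 ± 0.66), a value that was -0.91 with an adjusted p of 0.255 by limma without control day 112 replicate 2, and the call was lost without any 1 of 3 of 6 arrays. In fatty acid oxidation, Hadha fell in LUN fat (-0.79 ± 0.20), and Eci1, Hadhb (-1.14 ± 0.33), Acss1 (-0.96 ± 0.21) and Crat (-0.72 ± 0.20) in control fat. Of these, that of Acss1 held with each array left out, and the calls of Hadha, Hadhb and Crat were each lost without any 1 of 5 of 6 arrays. Without control day 112 replicate 2 and the other arrays of lowest correlation Hadhb was at -1.10 and Crat at -0.61 in control fat, and neither was called. Eci1 had 14.73, 17.02 and 16.84 at day 112 and 17.37, 17.32 and 17.38 at day 56 in control fat (-1.15 ± 0.32), and the difference was -0.42 without control day 112 replicate 1, with the call lost without any 1 of 4 of 6 arrays. Fh1 fell in LUN fat (-0.95 ± 0.23), a call lost without any 1 of 3 of 6 arrays. With median scaling Hadha (-0.62) and Fh1 (-0.85) were not called in LUN fat.

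The muscle markers moved in opposite directions in this comparison, with 10 of 14 lower in LUN fat, 11 lower in LON fat and 12 higher in control fat, and medians of -1.20 in LUN, -5.10 in LON and 4.34 in control fat. Pdha1 and Pdhb fell in each diet. The brown adipocyte markers fell in all 3 diets, 3 of 7 in LUN, 3 in LON and 5 in control fat, with log2 differences of Ucp1 of -5.55 in LUN, -5.78 in LON and -5.82 in control fat. Without control day 112 replicate 2 and the other arrays of lowest correlation, 4 of the 7 fell in control fat, and the median was -1.24 there against -2.39. Of 5 adipocyte markers 2 rose in LUN, 2 in LON and 1 in control fat, with medians of 0.60 in LUN, 0.83 in LON and 0.40 in control fat. Lep, the gene of the hormone leptin, rose in each (3.02 in LUN, 3.44 in LON and 3.64 in control fat). The summed signal of the 5, divided by 1000, was 2580 to 2870 at day 112 and 1050 to 1650 at day 56 in LUN arrays, 2730 to 2780 at day 112 and 1570 to 2200 at day 56 in LON arrays, and 2090 to 2300 at day 112 and 1560 to 2060 at day 56 in control arrays. The part of muscle, brown adipocytes and adipocytes in the fall of Pdha1 and Pdhb was not tested. Of the 23 further genes of the TCA cycle, pyruvate and the chain, 3 fell in LUN fat, 2 rose and 3 fell in LON fat, and 4 fell in control fat, and Pdk4 fell in each (-1.14 in LUN, -1.12 in LON and -0.71 in control fat). The LON call of Pdk4 was lost with median scaling (-0.62). Its control call was lost without control day 56 replicate 2 (-0.74) or replicate 3 (-0.65). Of the 22 further genes of fatty acid oxidation, 1 fell in LUN fat, 4 rose and 1 fell in LON fat, and 1 rose and 1 fell in control fat. Among the regulators, Ppara fell in LUN (-1.23) and LON fat (-1.42). Esrra, an orphan receptor of mitochondrial genes, had 14.47, 10.36 and 14.64 at day 112 and 14.86, 15.00 and 14.99 at day 56 in control fat. Its difference of -1.79 was called, and was -0.39 with an adjusted p of 0.509 by limma without control day 112 replicate 2.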

How the data were processed

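RNA from inguinal fat was pooled from 12 mice per group, labelled and hybridised to 3 arrays per pool, read by chemiluminescence. The authors deposited raw intensity values for each probe and array, and a table of log2 values after quantile normalization. The raw intensities of the 45 arrays were quantile normalized again (R 4.3.3, limma 3.58.1) and set on the log2 scale with no offset, which correlated at 0.9998 with the deposited log2 values. Array medians before normalization ran from 545 to 1459, and the number of arrays limits the precision. No arrays were identical.

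One mean per group was fitted for the 15 groups with a shared spread, and moderated tests of 18 contrasts were two-sided with Benjamini-Hochberg adjustment over 33012 probes. The steps were tested on simulated data. Probe names came from the platform annotation, in which 14411 probes had 1 symbol, 247 several and 18354 none, and 540 named genes had more than 1 probe. Values are given for the genes called at day 21 between diets, in the control day 21 rise or in its difference between diets, for up to 4 called genes with the largest change in every other comparison, and for some others by role. Promoters on chromosome 18 were left out of the motif search. The members and lists were chosen with earlier results of these data known. Alternatives were the deposited values, median scaling, cyclic loess, background correction by normexp with an offset of 50, only probes above the median signal, a replicate block, pools as replicates, each array left out, the mean of all probes of a gene, and the methods' t-test. Leaving out the 3 arrays of lowest correlation was added after seeing the data. Figures were drawn with Python 3.11.15 and matplotlib 3.10.9.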

Additional observations from a re-analysis of the deposited data

Results flagged for a closer look

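Ogdh was the member whose day 21 rise differed between diets by the test of the difference itself. The rise in LUN minus that in control fat was -1.07 on the log2 scale, with a rise of 0.38 in LUN and 1.45 in control fat. All 3 LUN arrays of day 21 were below all 3 control arrays. The difference had a limma adjusted p of 0.018. With median scaling it was -0.26 with an adjusted p of 0.772 by limma, and the adjusted p was between 0.0577 and 0.0639 without control day 21 replicate 1, LUN day 21 replicate 1 or LUN day 21 replicate 3.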

How the results depend on the processing

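None of the 63 calls changed direction under any alternative. The probe filter, the replicate block, pools as replicates and the methods' t-test keep the same group differences, so they could not show a change. The deposited values, the mean of all probes and only probes above the median signal kept all 63 calls, but these settings were weak tests. The deposited values correlated at 0.9998 with those used here, and Hadhb alone of the genes had 2 probes. The filter on signal removed only Cpt1a from the genes, and it tests fewer probes. Cyclic loess and normexp kept 62, and median scaling kept 34. Pools as replicates kept 0 of the 63. The methods' t-test, which was not run on the rise, kept 3 calls and lost 30. The limits are that 1 pool stood for each group, that the LON arrays stand apart in median in the deposited table, and that signal over background was not tested.

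With median scaling the number of the 36 genes called was 0 for LUN at day 5, 1 at day 10 and 1 at day 21. All probes gave 332 higher and 194 lower for LUN at day 5, 161 and 859 at day 10, and 409 and 145 at day 21. The number of the 36 genes called was 0 for LON at days 10, 21 and 56 and 9 at day 112. All probes gave 191 higher and 40 lower for LON at day 10, 192 and 45 at day 21, and 168 and 286 at day 56. Of all 33012 probes, 1863 were higher and 387 lower for LON at day 112, against 489 and 296 with quantile normalization. For the day 21 rise the number of the 36 genes called was 4 in LON and 5 in control fat. For day 112 against day 56 it was 3 in LUN and 4 in LON, where all probes gave 317 higher and 181 lower in LUN, and 1057 and 311 in LON. The median differences became 0.11, -0.38, 0.17 and -0.26 for LUN at days 5, 10, 21 and 56, where the medians of all named genes were 0.13, -0.31, 0.13 and -0.25. They became 0.79, -0.08, -0.46 and 0.56 for LON at days 5, 10, 56 and 112, beside 0.33, -0.19, -0.21 and 0.36 for all named genes. That of the rise was 0.46 in LUN and -0.01 in control fat (all named genes 0.03 and -0.35), that of its difference 0.46 for LUN and 0.48 for LON minus control (0.39 and 0.34), and that of day 112 against day 56 was 0.20 in LON and -0.79 in control fat (0.34 and -0.23). The cause of the shift of all genes was not tested.

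With only probes above the median signal, which tests fewer probes, 4 genes were called for LUN at day 5, 5 for LON at day 21, 3 for LON at day 56, 17 for the rise in LON, 2 for its difference in LUN, and 8 in LUN and 4 in LON for day 112 against day 56. For the rise in LON that setting called 318 probes higher and 256 lower of 16506, against 192 and 172 of 33012. For LUN at day 5 it called 336 higher and 435 lower of 16506. The counts for LON were 473 and 270 at day 21, and 331 and 705 at day 56. For the difference of the rise in LUN they were 643 and 294. For day 112 against day 56 they were 676 and 604 in LUN, and 808 and 341 in LON. Cyclic loess called 4 genes for LUN at day 5 and 4 for day 112 against day 56 in LON, and the mean of all probes called 2 for LUN at day 5. Of all 33012 probes cyclic loess called 378 higher and 431 lower in the first of these and 529 and 444 in the second. The mean of all probes called 182 higher and 285 lower for LUN at day 5. With pools as replicates 0 were called in each comparison, and at most 23 higher and 4 lower of all 33012 probes. The methods' t-test with Benjamini-Hochberg adjustment called 0 for LUN at days 5 and 21, 0 for LON at days 5, 21, 56 and 112, 1 for LON at day 10, and 2 in LUN, 2 in LON and 0 in control fat for day 112 against day 56. Of all 33012 probes it called none for LUN at day 5, and 77 higher and 49 lower at day 21. For LON it called 112 and 43 at day 5, 121 and 15 at day 10, and 3 and 0 at day 21. The LON counts were 12 and 1 at day 56, and 32 and 26 at day 112. For day 112 against day 56 they were 54 and 59 in LUN, 43 and 47 in LON, and 27 and 9 in control fat. Without the 3 arrays of lowest correlation, 0 were called for LUN at day 5 and 1 for LON at day 21. Of all 33012 probes 216 were then higher and 185 lower for LUN at day 5, and 342 and 106 for LON at day 21.

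Leaving out each array in turn gave 0 to 2 calls for LUN at day 5, 1 to 2 at day 21 and 0 to 2 at day 112. For LON it gave 3 to 4 at day 5, 0 to 2 at days 10 and 21, 1 to 2 at day 56 and 2 to 6 at day 112. It gave 3 to 5 for the rise in LUN, 6 to 11 in LON and 7 to 13 in control fat, and 0 to 1 for its difference in LUN. For day 112 against day 56 it gave 3 to 6 in LUN, 2 to 3 in LON and 4 to 8 in control fat. The median for LUN at day 5 ran from -0.33 to -0.17.

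Arrays with the same replicate number did not deviate together (mean r = -0.003 over 315 pairs). With the replicate number as a block, 58 of the 63 calls held, and the number called was 2 for LON at day 10, 4 for the rise in LUN, 11 for the rise in control fat and 7 for day 112 against day 56 in control fat. Of all 33012 probes, 206 were higher and 24 lower for LON at day 10. For the rise the counts were 748 and 591 in LUN, and 482 and 684 in control fat. For day 112 against day 56 they were 481 and 538 in control fat.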
